A study of Mus musculus with 6 samples.

Results

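The collagen gene family was described in primary mouse pancreatic stellate cells (PSCs) at 21% and at 1% oxygen. Members were the protein-coding genes whose symbol has the form Col, a number, a and a number in the GENCODE annotation, and 44 of the 55426 features in the count table met this rule. Of these, 38 had enough counts to be tested, among 16207 genes tested in all. RNA was measured in 6 samples of PSCs from wild-type C57BL/6 mice, 3 kept in normoxia (21% O2) and 3 in hypoxia (1% O2), each for 48 h. PSCs are the fibroblast-like cells of the pancreas from which cancer-associated fibroblasts can arise. They were taken from male and female mice of 8 to 12 weeks, used between passages 2 and 4, and seeded in Matrigel in a transwell insert. In both groups the lower compartment held organoids of mT3, a pancreatic ductal adenocarcinoma (PDAC) line from a KPC mouse, so each PSC sample had been in coculture, and PSCs without tumor cells were not analysed here. The labels do not say whether the samples of a group came from separate animals or PSC lines, and the p-values then measure only the spread between these samples, which may be technical.

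Collagens are proteins whose chains wind around each other in a long helix, and each gene encodes a single kind of chain. Fibrillar collagens build the load-bearing fibrils of connective tissue, FACIT collagens sit on the surface of those fibrils, type IV collagens form the sheet of basement membranes, and beaded filament collagens of type VI link cells to the surrounding matrix. Activated PSCs are known as a main source of the dense collagen matrix of pancreatic tumors.

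Libraries held between 24749601 and 31925054 counts, and a count of 3 in a library corresponded to 0.0943 to 0.122 CPM (counts scaled to the library total, with factors from the TMM method that even out library composition). Counts of reads are not independent molecules, so this limit covers counting error only. Normoxic replicate 2 stood apart from its group, with a chi-square per degree of freedom of 24.6 and 17.5 against the other normoxic samples, which gave 6.77 between themselves. Hypoxic replicate 2 stood apart to a smaller degree, with 13.2 and 11.2 against 6.15 between the other hypoxic samples. All 10 fibroblast and PSC markers could be tested, and their summed level was 10173 to 13230 CPM in normoxia and 19320 to 19839 CPM in hypoxia, with 3 called higher and 2 lower. Most of this difference was Fn1, and without it the sums were 4703 to 4905 CPM and 5531 to 6220 CPM. The 12 macrophage markers summed to 985 to 1742 CPM in normoxia and 507 to 912 CPM in hypoxia, and 7 were called lower. The 4 tested adipocyte markers were all called lower, at a sum of 588 to 1522 CPM (highest in replicate 2) against 58.6 to 77.5 CPM. Of 10 epithelial markers 3 could be tested. The sum of all 10 was 3.23 to 5.31 CPM in normoxia and 25 to 28.9 CPM in hypoxia, where most of it was Krt19. Ocln and Esrp1 were at 0 in every sample and Epcam and Cdh1 near 0. The part of these cell types in the collagen results was not tested. In bulk samples, fewer cells of a type and less RNA per cell cannot be told apart.

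At 1% O2 the sum of collagen counts stayed at a similar share of all counts, while its make-up differed. Of all counts, collagen genes took 4.70%, 4.05% and 4.88% in normoxia and 4.74%, 3.97% and 4.45% in hypoxia. The means were 4.54% ± 0.438 and 4.39% ± 0.387 (SD, n = 3 each), and the groups overlapped. The difference of -0.156 percentage points turned its sign when normoxic replicate 3 (0.0149 points) or hypoxic replicate 2 (0.0516 points) was left out. Per exon kilobase, which allows for the length of each gene, the shares were 1.82% ± 0.194 and 1.89% ± 0.179. Single members differed by more than this sum.

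With edgeR's quasi-likelihood test, a linear fold change beyond 1.5 and an adjusted p under 0.05, 12 of the 38 tested members were called higher in hypoxic PSCs and 6 lower. That is 31.6% of the tested members called higher, against 18.9% of all tested genes, and 15.8% called lower, against 15.3% of all tested genes. The split was 12 higher and 10 lower after a correction for GC content, and 12 higher and 9 lower after a correction for length or without normoxic replicate 2. Of all genes tested, 18.6% were then called lower after the GC correction, 18.4% after the length correction and 14.7% without that sample. An adjusted p under 0.05 with any fold change was reached by 24 members, a background of 62.7% of all genes. In 23 members (60.5%) the samples of the groups did not overlap, against 68.9% of all genes. The median log2 fold change of the tested members was -0.11 and that of all genes -0.004, while the median size of the change regardless of direction was 0.79 for members and 0.42 for all genes.

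The calls were also counted by level. Among the 13 members with a mean of at least 500 CPM over the 6 samples, 2 were called higher (Col5a3 and Col16a1) and 0 lower, against 17.3% and 16.5% of the 260 genes at that level. DESeq2 and limma-voom called the same 12 and 6 members, so 0 of the abundant set were lower there too, whereas 6 of them were lower at an unadjusted edgeR p under 0.05 with a smaller fold change (Col1a2, Col4a1, Col4a2, Col5a1, Col6a3 and Col15a1). Such a p is common here, since 62.7% of all tested genes had an adjusted p under 0.05 in either direction at any fold. Among the 25 members under 500 CPM, 10 were called higher and 6 lower, against 19.0% and 15.3% of all tested genes under that level.

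**Figure D1:**
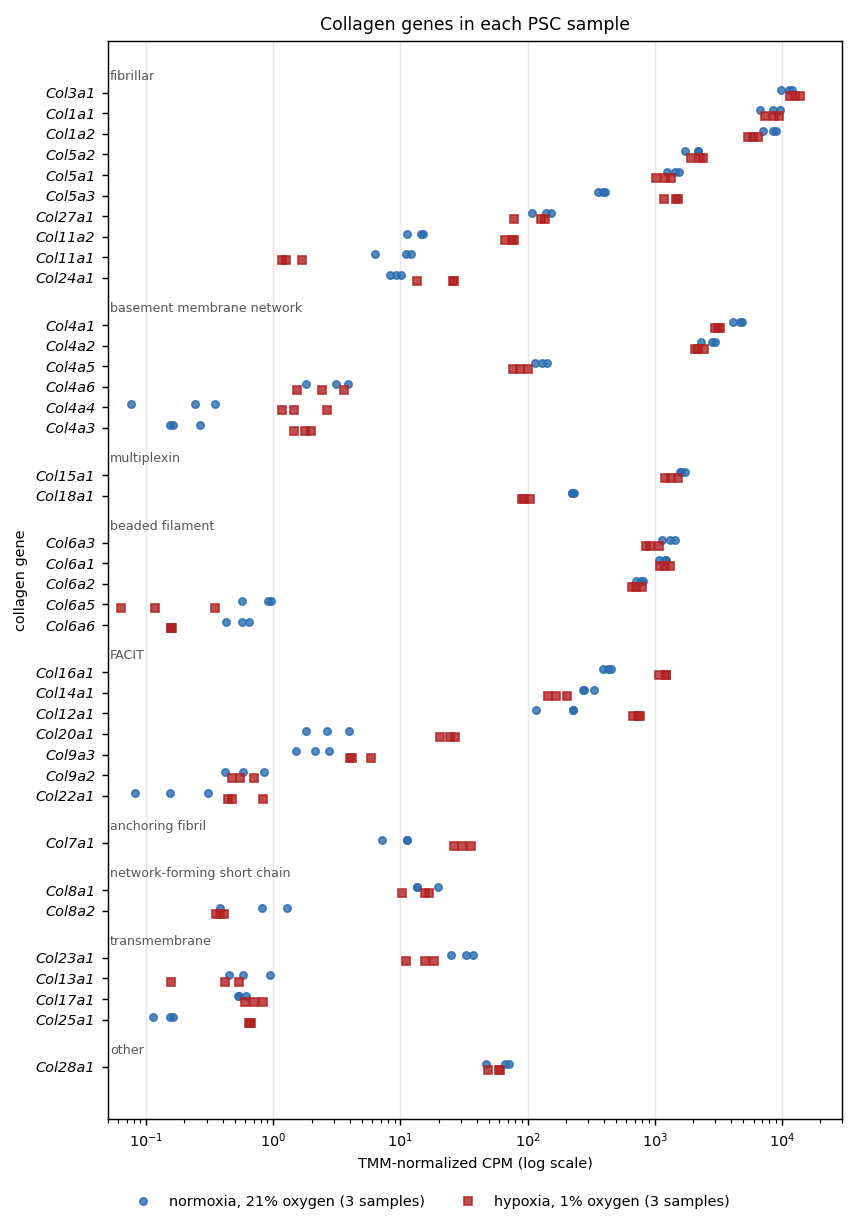
TMM-normalized CPM on a log axis for the 38 tested collagen genes, grouped by class, with a point for each of the 3 normoxic (circles) and 3 hypoxic samples (squares). Col3a1, Col1a1 and Col1a2 lie at the top of the scale in both groups, and the groups stand clearly apart for Col5a3, Col11a2, Col11a1, Col16a1, Col12a1 and Col20a1.

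The chains of types I and III were the most abundant members per length in both conditions. In normoxia the level in CPM per exon kilobase was 1268 ± 218 for Col1a1, the major chain of type I collagen, and 1136 ± 117 for Col3a1, the single chain of type III collagen (SD, n = 3 each), which differ by less than their spread. Col1a2, the second chain of type I, followed at 658 ± 79.7 and Col4a1 at 610 ± 51.0, again closer than their spread. The next places on this scale were held by Col4a2 (408 ± 51.2), Col6a1 (269 ± 17.8), Col15a1 (259 ± 11.2) and Col5a2 (213 ± 26.8), of which Col6a1 and Col15a1 were within their spread. In hypoxia Col3a1 (1298 ± 119) and Col1a1 (1294 ± 164) could not be told apart, and Col1a2 stood at 477 ± 42.8. The order depends on the length taken for a gene. With the length of the principal coding transcript in place of all exons, the normoxic levels were 2004 for Col3a1, 1530 for Col1a2 and 1403 for Col1a1 in the same unit.

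No chain of types I and III was called higher or lower. Col1a1 was at 8533, 6798 and 9633 CPM in normoxia and at 9466, 7334 and 8687 CPM in hypoxia, with overlap and a log2 fold change of 0.03 (95% interval -0.28 to 0.34, adjusted p = 0.863 by edgeR). This near-zero value changed sign under the GC and length corrections, each of which also moved the median of all genes to -0.09. Col3a1 was at 11425, 9886 and 12138 CPM in normoxia and 13884, 11543 and 12794 CPM in hypoxia, with a log2 fold change of 0.19 (95% interval -0.05 to 0.43, adjusted p = 0.142 by edgeR). Col1a2 was at 8483, 7075 and 8984 CPM against 6462, 5399 and 5926 CPM. For Col1a2 the highest hypoxic value was below the lowest normoxic value, and its log2 fold change of -0.46 (SE 0.11, adjusted p = 0.00476 by edgeR) stayed within the 1.5-fold limit, which it passed only after the GC correction (-0.60).

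Among the type V chains, which join type I fibrils and set their width, the 3 genes differed. Col5a3 (ENSMUSG00000004098, chromosome 9 of GRCm38, 20770050 to 20815067, minus strand) was at 357, 409 and 392 CPM in normoxia and at 1468, 1177 and 1515 CPM in hypoxia. All hypoxic samples lay above all normoxic ones, a 3.59-fold rise (log2 fold change 1.84, SE 0.10, adjusted p = 9.92e-07 by edgeR). Its rank per exon length among the members went from 13 to 9. Col5a1, the chain found in most type V molecules, was at 1449, 1259 and 1553 CPM against 1334, 1023 and 1213 CPM, and its log2 fold change of -0.26 had an adjusted p of 0.0684 by edgeR. Col5a2 was at 2204, 1746 and 2177 CPM against 2388, 1917 and 2272 CPM, a log2 fold change of 0.10 (adjusted p = 0.447 by edgeR), and the samples of the conditions overlapped for both of these chains.

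The chains of type XI, a minor fibrillar collagen closely related to type V, moved in opposite directions. Col11a2 (ENSMUSG00000024330, chromosome 17, 34039437 to 34066685, plus strand) was at 11.2, 14.5 and 15 CPM in normoxia and 75, 66.7 and 78.0 CPM in hypoxia, a rise of 5.39-fold (log2 fold change 2.43, SE 0.11, adjusted p = 2.73e-07 by edgeR). Col11a1 (ENSMUSG00000027966, chromosome 3, 114030540 to 114220718, plus strand) was at 11.1, 6.26 and 12 CPM in normoxia and 1.69, 1.18 and 1.26 CPM in hypoxia, a fall of 7.17-fold (log2 fold change -2.84, SE 0.27, adjusted p = 2.47e-05 by edgeR). Neither gene had overlapping groups. Per exon kilobase, Col11a2 was at 1.97 and Col11a1 at 0.77 CPM in normoxia, and at 10.7 and 0.108 CPM in hypoxia. Col24a1, another minor fibrillar chain, rose by a log2 fold change of 1.25 (SE 0.23, adjusted p = 0.00131 by edgeR), with the smallest hypoxic value in replicate 2. Col27a1 had a log2 fold change of -0.23 (adjusted p = 0.33 by edgeR). Of the 10 tested fibrillar genes 3 were called higher, 1 lower and 6 neither, with a median log2 fold change of 0.07. For this class and the classes below, the shares over all tested genes were 18.9% higher and 15.3% lower. Types II, IX and XI are known from cartilage, so 6 chondrocyte markers were read beside them. Their sum was 30.5 to 30.7 CPM in normoxia and 58.0 to 67.2 CPM in hypoxia, nearly all of it Sox9, which rose by 1.07 on the log2 scale (adjusted p = 1.49e-06 by edgeR), while Acan, Matn1, Matn3 and Hapln1 were at or near 0 and Comp was not called. Its part in the values of these collagens was not tested.

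Windows upstream of the start site are shown for Col5a3, Col11a2 and Col11a1, the fibrillar genes with the largest changes, and for the gap between Col4a4 and Col4a3. They come from RefSeq on GRCm38.p6, are written 5′ to 3′ on the strand of the gene, and end at the base before the start of transcription in RefSeq. Capitals mark the letters ACGTG or GCGTG or their reverse complements, CACGT and CACGC, which hold the core of the hypoxia response element. The motifs share their last 4 letters and cannot start at the same base. The stretches are chr9:20815068-20815317 on the minus strand, chr17:34038888-34039137 and chr3:114030290-114030539 on the plus strand, and chr1:82586850-82586920 on the strand of Col4a4, which is the minus strand.
Col5a3: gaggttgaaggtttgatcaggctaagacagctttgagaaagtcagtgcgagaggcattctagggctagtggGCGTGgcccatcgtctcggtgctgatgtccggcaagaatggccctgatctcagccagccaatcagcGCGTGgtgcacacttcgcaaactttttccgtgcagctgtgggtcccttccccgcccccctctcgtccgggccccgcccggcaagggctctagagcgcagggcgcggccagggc
Col11a2: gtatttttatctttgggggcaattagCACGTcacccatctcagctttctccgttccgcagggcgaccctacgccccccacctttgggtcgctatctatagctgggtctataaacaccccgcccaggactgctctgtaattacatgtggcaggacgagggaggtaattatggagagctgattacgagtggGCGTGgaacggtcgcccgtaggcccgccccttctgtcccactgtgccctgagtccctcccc
Col11a1: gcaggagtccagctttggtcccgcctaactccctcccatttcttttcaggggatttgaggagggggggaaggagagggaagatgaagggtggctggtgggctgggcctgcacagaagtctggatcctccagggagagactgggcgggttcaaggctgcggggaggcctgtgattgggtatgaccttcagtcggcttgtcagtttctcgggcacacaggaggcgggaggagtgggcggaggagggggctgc
Col4a4 to Col4a3: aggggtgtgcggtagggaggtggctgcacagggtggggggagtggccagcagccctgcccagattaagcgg
The stretch of Col5a3 holds GCGTG 2 times, that of Col11a2 holds each motif 1 time, and those of Col11a1 and of the Col4a4 and Col4a3 gap hold neither. The whole window of Col4a4, which reaches past the printed gap, holds ACGTG 1 time. RefSeq windows of 250 bases before to 50 after a start were found for 35 of the 44 members, as 38 windows, and none was found for Col1a1, Col2a1, Col4a3, Col5a2, Col9a3, Col12a1, Col14a1, Col22a1 and Col26a1. ACGTG lay in 13.2% of the member windows and in 19.6% of all 32851 windows, and GCGTG in 26.3% and 32.4%. Among the 8 called-higher members with a window, 2 held ACGTG and 4 held GCGTG, and among the 5 called lower 1 and 1. A match of letters is a description of these windows and not a bound site.

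**Figure D2:**
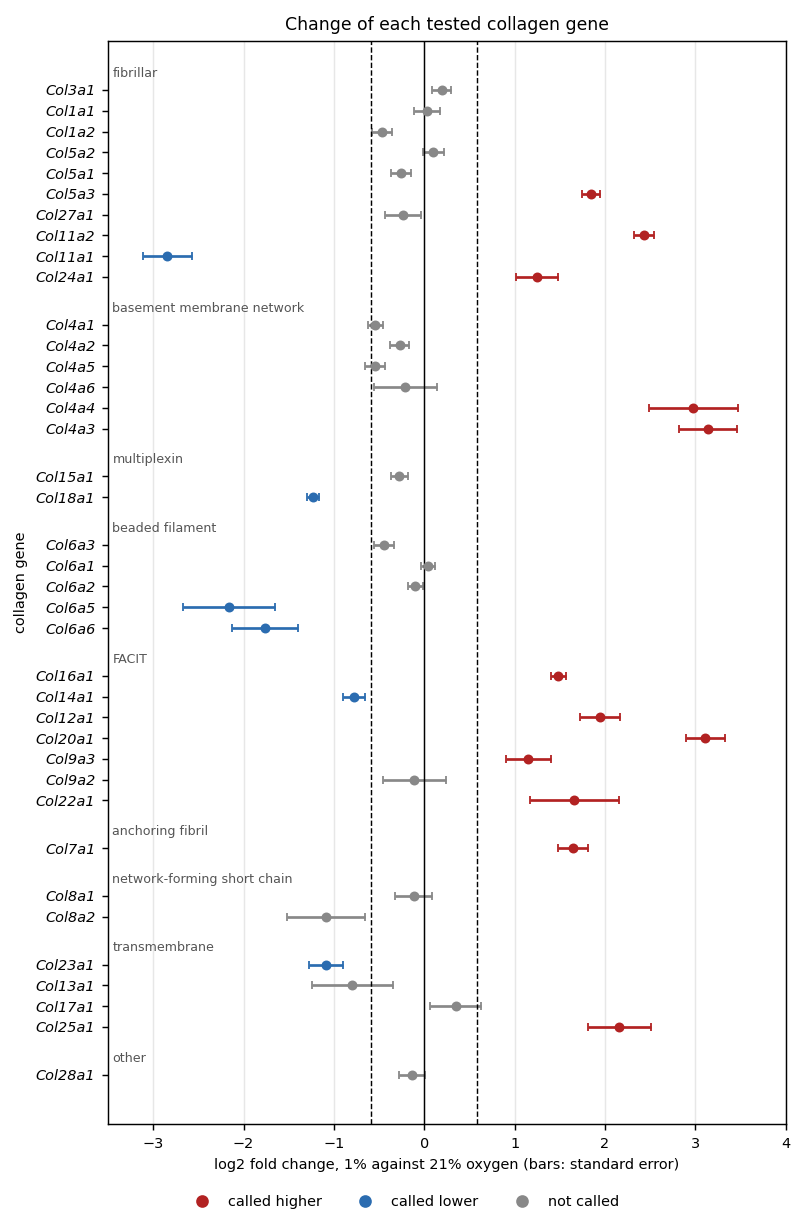
Log2 fold change of the 38 tested collagen genes at 1% against 21% oxygen by class, with bars for the standard error and dashed lines at a linear fold change of 1.5. Red points were called higher (12 genes), blue points lower (6) and grey points neither (20), and 5 of the 7 tested FACIT genes are red.

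The FACIT class held the most members that rose. Of its 7 tested genes 5 were called higher, 1 lower and 1 neither, against 18.9% higher and 15.3% lower of all tested genes. The median log2 fold change was 1.48, and the summed CPM of the class was 937, 787 and 1021 in normoxia and 2083, 2091 and 2175 in hypoxia. Col12a1 (ENSMUSG00000032332), whose product decorates type I fibrils in tissues under load, was at 228, 116 and 227 CPM in normoxia, lowest in replicate 2, and at 680, 770 and 745 CPM in hypoxia. Its log2 fold change was 1.94 (SE 0.22, adjusted p = 6.64e-05 by edgeR), and without normoxic replicate 2 it was 1.68, the lowest value over the samples left out. Col14a1, another chain of the fibril surface, fell from 279, 274 and 331 CPM to 144, 205 and 166 CPM, a log2 fold change of -0.78 (SE 0.12, adjusted p = 0.000516 by edgeR). Both fibril-surface genes thus had groups without overlap and opposite signs.

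Col16a1 (ENSMUSG00000040690), a FACIT-like chain found near fibrils and basement membranes, was the most abundant of the class. It rose from 426, 389 and 457 CPM to 1233, 1085 and 1233 CPM, a log2 fold change of 1.48 with an SE of 0.08 (adjusted p = 9.24e-07 by edgeR). Col20a1 (ENSMUSG00000016356) rose from 1.81, 3.91 and 2.64 CPM to 20.7, 26.9 and 24.5 CPM, or 8.61-fold (log2 fold change 3.11, adjusted p = 3.57e-06 by edgeR). A gene on the same strand, BX649560.1, overlaps 1.54% of its exons and had 336, 334 and 281 counts in normoxia and 619, 710 and 803 in hypoxia. Among the rarer members Col9a3 rose by 1.15 on the log2 scale (adjusted p = 0.00285 by edgeR) from 39, 72 and 52 counts to 103, 130 and 188, and 6.07% of its exons lie antisense to Tcfl5. Tcfl5 had 87, 75 and 98 counts in normoxia and 153, 143 and 151 in hypoxia. The strand setting of the counting is not given in the sources used here, so reads of the overlap cannot be assigned. Col9a2 had a log2 fold change of -0.11 (adjusted p = 0.799 by edgeR). Col22a1 rose from 4, 8 and 2 counts to 12, 26 and 14 (log2 fold change 1.66, adjusted p = 0.0154 by edgeR), and this call was lost without normoxic replicate 3 (adjusted p = 0.0592 by edgeR) or hypoxic replicate 2 (adjusted p = 0.0671 by edgeR). Without normoxic replicate 2 its log2 fold change was 2.25.

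Of the 6 type IV genes, which encode the network of basement membranes, 2 rare ones were called higher, 0 lower and 4 neither by each of edgeR, DESeq2 and limma-voom, with a median log2 fold change of -0.24. At an unadjusted p under 0.05 by edgeR, 3 were lower with a fold change inside the limit. Of all tested genes, 62.7% had even an adjusted p under 0.05 in either direction at any fold. Col4a1 was at 4850, 4126 and 4691 CPM in normoxia and 3266, 2975 and 3138 CPM in hypoxia, and Col4a2, its partner chain, at 2958, 2316 and 2825 CPM against 2431, 2080 and 2201 CPM. Every hypoxic sample was lower for Col4a1, and the groups overlapped for Col4a2. Their log2 fold changes of -0.54 (SE 0.08, adjusted p = 0.000418 by edgeR) and -0.27 (SE 0.10, adjusted p = 0.0439 by edgeR) lay within the 1.5-fold limit. For Col4a2 the adjusted p by edgeR was 0.132 without normoxic replicate 1 and 0.00259 without normoxic replicate 2. Col4a5 had the same size of change as Col4a1 (-0.54, SE 0.11, adjusted p = 0.002 by edgeR). Col4a1 and Col4a5 passed the fold limit after the GC correction (-0.73 and -0.61), after the length correction (-0.64 and -0.66) and without normoxic replicate 2 (-0.62 and -0.63), and Col4a5 also without hypoxic replicate 1 (-0.65). Each of the 2 corrections moved the median of all genes to -0.09 as well.

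Col4a3 and Col4a4, chains of the specialized basement membranes of kidney and lung that assemble with Col4a5, were among the 3 members with the highest log2 fold change, from a very low base. Col4a3 had 4, 7 and 4 counts in normoxia and 37, 56 and 63 in hypoxia (log2 fold change 3.14, SE 0.32, adjusted p = 3.43e-05 by edgeR). Col4a4 had 9, 2 and 6 counts against 30, 83 and 46 (log2 fold change 2.98, SE 0.49, adjusted p = 0.000673 by edgeR). In hypoxia their mean levels were 1.74 and 1.76 CPM, against 3126 CPM for Col4a1. The genes lie head to head on chromosome 1 with starts 72 bases apart, Col4a3 from 82586921 to 82722059 on the plus strand and Col4a4 from 82448423 to 82586849 on the minus strand. Exons of Col4a3 overlap the antisense gene C430014B12Rik over 5.65% of their length, and that gene had 11 to 23 counts in every sample. Col4a1 and Col4a2 also run in opposite directions, on chromosome 8, with starts 21 bases apart and 5′ ends that overlap. Col4a6 and Col4a5 do so on the X chromosome, with starts 1309 bases apart and a gap between them. Col4a6 had a log2 fold change of -0.21 (adjusted p = 0.619 by edgeR). The summed type IV level was 7388 ± 733 CPM in normoxia and 5458 ± 332 CPM in hypoxia (SD, n = 3 each), given without a test. Vessel cells also make this network. The 8 endothelial markers summed to 15.7 to 21.8 CPM in normoxia and 21.8 to 30.9 CPM in hypoxia, with 2 of 7 tested called higher and 2 lower, and the 6 mural markers to 79.0 to 87.3 and 126 to 146 CPM, with 3 called higher and 1 lower. The part of these cells in the type IV values was not tested.

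Of the 2 multiplexins, basement membrane collagens with interrupted helices, 1 was called lower and 1 neither. Col18a1 (ENSMUSG00000001435, chromosome 10), whose product holds the endostatin fragment, was at 232, 225 and 225 CPM in normoxia and 105, 90.4 and 94.1 CPM in hypoxia. It fell by 1.23 on the log2 scale (SE 0.07, adjusted p = 6.9e-07 by edgeR). Col15a1 was at 1723, 1586 and 1622 CPM against 1540, 1202 and 1336 CPM, also without overlap, and its log2 fold change of -0.28 (SE 0.09, adjusted p = 0.0272 by edgeR) lay within the fold limit. Its adjusted p by edgeR was 0.0804 without hypoxic replicate 3 and 0.00624 without hypoxic replicate 1. Col7a1, the chain of the anchoring fibrils that tie basement membranes to stroma, went the other way. It rose from 7.20, 11.2 and 11.3 CPM to 30.6, 26.4 and 35.9 CPM (log2 fold change 1.65, SE 0.17, adjusted p = 3.92e-05 by edgeR).

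Among the 5 tested beaded filament chains of type VI, 0 were called higher, 2 lower and 3 neither, with a median log2 fold change of -0.44. Of all tested genes 18.9% were called higher and 15.3% lower, and 5 chains are too few to set apart from these shares. DESeq2 and limma-voom also called 0 of the chains higher, and 0 had a higher level at an unadjusted p under 0.05 by edgeR. Col6a1 was at 1087, 1227 and 1216 CPM in normoxia and 1310, 1109 and 1210 CPM in hypoxia, and Col6a2 at 719, 817 and 781 CPM against 790, 664 and 710 CPM, with overlap in both genes. Their log2 fold changes were 0.04 (95% interval -0.14 to 0.22, adjusted p = 0.687 by edgeR) and -0.10 (95% interval -0.28 to 0.08, adjusted p = 0.307 by edgeR). That of Col6a1 changed sign under the GC and length corrections, each of which moved the median of all genes to -0.09. Col6a3, the long chain of the same molecule, was at 1435, 1145 and 1314 CPM against 1089, 860 and 916 CPM, with a log2 fold change of -0.44 (SE 0.11, adjusted p = 0.00581 by edgeR) inside the fold limit. Among the rare alternative long chains, Col6a5 and Col6a6 fell. Col6a5 went from 25, 24 and 14 counts to 3, 2 and 11, and Col6a6 from 11, 15 and 16 to 4, 5 and 5 (log2 fold changes -2.16 and -1.76, adjusted p = 0.00491 and 0.00243 by edgeR). Without hypoxic replicate 3, which held most of the hypoxic counts, the value of Col6a5 was -3.14.

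Of the transmembrane collagens, which are anchored in the cell surface and can be shed, 1 was called higher, 1 lower and 2 neither. Col23a1 fell from 24.8, 32.7 and 37.5 CPM to 18.3, 11.1 and 15.6 CPM (log2 fold change -1.09, SE 0.19, adjusted p = 0.000913 by edgeR). Col25a1, a chain best known from neurons, rose from 4, 3 and 4 counts to 17, 20 and 21 (log2 fold change 2.16, SE 0.35, adjusted p = 0.000541 by edgeR). Col13a1 (-0.80, adjusted p = 0.153 by edgeR) and Col17a1 (0.35, adjusted p = 0.299 by edgeR) rested on 4 to 26 counts per sample. The short chain collagens of type VIII, known from the vessel wall and the cornea, were not called. Col8a1 was at 13.4, 13.4 and 19.7 CPM in normoxia and 10.2, 16.7 and 15.6 CPM in hypoxia, with a log2 fold change of -0.12 (adjusted p = 0.625 by edgeR). Col8a2 was at 1.27, 0.380 and 0.811 CPM against 0.353, 0.383 and 0.409 CPM, and its log2 fold change of -1.09 (adjusted p = 0.0531 by edgeR) passed the threshold in 6 alternatives, lowest without normoxic replicate 2 (-1.44, adjusted p = 0.00566 by edgeR). Col28a1, which belongs to no class above, had a log2 fold change of -0.13 (adjusted p = 0.449 by edgeR).

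For 6 members the counts were too low to pass the filter. In an edgeR fit without the filter 0 of them were called, and 1 had an unadjusted p under 0.05 (Col2a1, adjusted p = 0.107 by edgeR). Col2a1, the chain of cartilage fibrils, had 1, 2 and 3 counts in normoxia and 9, 10 and 3 in hypoxia. Col10a1, known from growth plate cartilage, had 1 to 7 counts per sample, Col6a4 5 to 14, Col19a1 0 to 2, Col26a1 0 to 2, and Col9a1 had 2 counts in 1 normoxic sample and 0 in the rest. A difference between the conditions was not detectable for these genes at this depth.

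The make-up of the collagen reads differed between the conditions with little spread inside them. Col3a1 took 24.4%, 24.8% and 24.8% of the summed collagen CPM in normoxia and 28.9%, 29.0% and 28.7% in hypoxia. Col1a2 took 18.1%, 17.8% and 18.3% against 13.4%, 13.6% and 13.3%, and Col4a1 10.1% ± 0.46 against 7.10% ± 0.345 (SD, n = 3 each). Col5a3 went from 0.864% ± 0.143 to 3.13% ± 0.23 and Col16a1 from 0.94% ± 0.0343 to 2.68% ± 0.105. The share of Col1a1 was 18.3% ± 1.29 in normoxia and 19.2% ± 0.675 in hypoxia, with overlap. Shares add up to a fixed total, so a larger share of 1 gene lowers that of the rest.

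**Figure D3:**
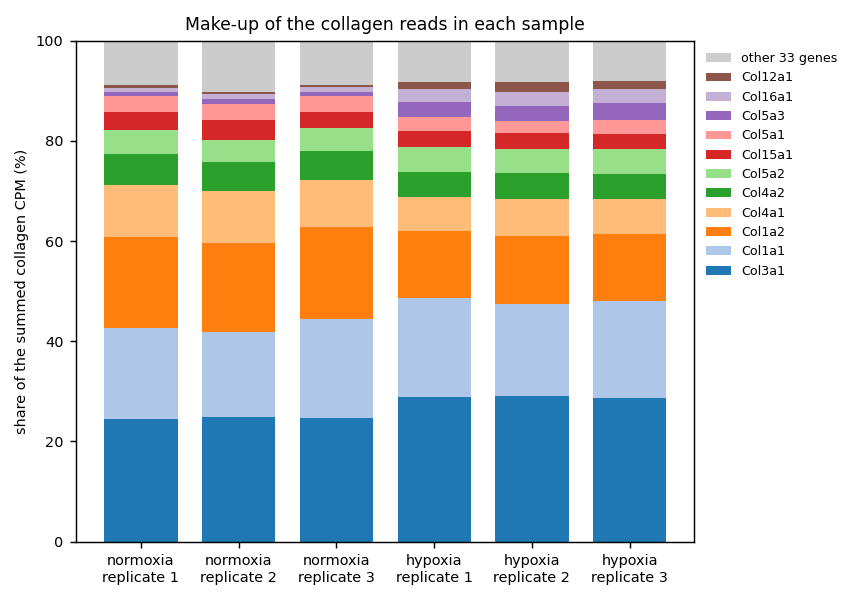
Share of the summed collagen CPM (percent) in each of the 6 samples, with 11 genes in color and the other 33 in grey. Col3a1 takes 24.4% to 24.8% of each normoxic and 28.7% to 29.0% of each hypoxic sample, while the segment of Col1a2 is thinner and those of Col5a3, Col16a1 and Col12a1 are thicker in hypoxia.

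Chains that assemble in a common molecule were compared within each sample, where scaling between libraries has no part. The log2 ratio of Col1a1 to Col1a2, each per exon kilobase, was 0.93, 0.86 and 1.02 in normoxia and 1.47, 1.36 and 1.47 in hypoxia, a difference of 0.50. In reads per length of the principal coding transcript this is a ratio of 0.913 against 1.29. The common type I molecule holds more Col1a1 than Col1a2 chains. The log2 ratio of Col4a1 to Col4a2 differed by -0.28 between hypoxia and normoxia, that of Col5a1 to Col5a2 by -0.36, that of Col6a1 to Col6a2 by 0.14 and that of Col6a3 to Col6a1 by -0.48. Across fibril types, the log2 ratio of Col3a1 to Col1a1 differed by 0.16 and that of Col5a1 to Col1a1 by -0.30. In each of these 7 pairs the samples of the groups did not overlap, and the exact two-sided permutation test gave p = 0.1, the smallest value that 3 against 3 samples allow (0.114 after Benjamini-Hochberg adjustment over 8 pairs). Groups without overlap were common, at 68.9% of all single genes tested, and ratios of other gene pairs were not computed. The log2 ratio of Col8a1 to Col8a2 differed by 0.81, with overlap (exact permutation p = 0.2, adjusted 0.2). With 3 samples against 3, this exact test cannot give a p under 0.05.

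**Figure D4:**
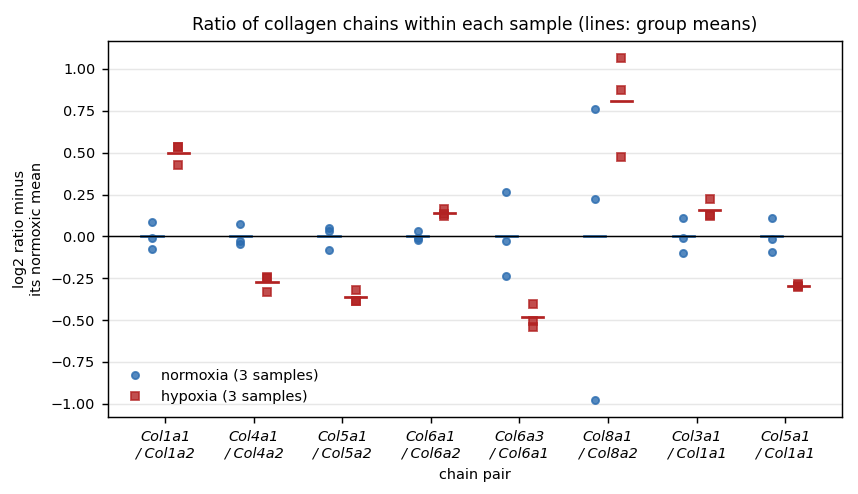
Log2 ratio of 8 chain pairs in each sample, minus the normoxic mean of the pair, with circles for 3 normoxic samples, squares for 3 hypoxic samples and lines for group means. Hypoxic samples lie apart from normoxic ones in 7 pairs, highest for Col1a1 to Col1a2 among these (difference 0.50), and overlap for Col8a1 to Col8a2.

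Several genes that modify collagen chains rose. New chains are hydroxylated on proline and lysine, given sugars and folded with the help of chaperones before export. Of 19 tested genes of this list 6 were called higher, 1 lower and 12 neither, with a median log2 fold change of 0.23. For this list and those that follow, the shares over all tested genes were 18.9% higher and 15.3% lower. P4ha2, a catalytic subunit of prolyl 4-hydroxylase, was at 192, 176 and 216 CPM in normoxia and 1087, 1071 and 1070 CPM in hypoxia (log2 fold change 2.47, SE 0.08, adjusted p = 6.04e-08 by edgeR). P4ha1, its paralog, rose by 0.94 (adjusted p = 3.03e-06 by edgeR), P4hb, the shared second subunit, by 0.93, Plod2, a lysyl hydroxylase that directs cross-links, by 1.01 (adjusted p = 1.05e-06 by edgeR) and Plod1 by 0.87. Colgalt2, a collagen galactosyltransferase, rose by 4.30 from 3, 2 and 5 counts to 67, 81 and 86 (adjusted p = 4.86e-06 by edgeR), while Colgalt1, at 326 and 329 CPM, had a log2 fold change of 0.01. Serpinh1, the collagen chaperone HSP47, was at 2279 ± 148 CPM in normoxia and 1749 ± 63.4 CPM in hypoxia (SD, n = 3 each), which is a log2 fold change of -0.38 within the fold limit (adjusted p = 0.0014 by edgeR). Fkbp7, a prolyl isomerase, fell by 0.81 (adjusted p = 5.46e-06 by edgeR).

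Export and propeptide processing, the steps that take procollagen out of the cell and trim it, were mostly not called. Of 15 tested genes 1 was called higher (Adamts3, log2 fold change 0.65), 2 lower (Adamts2, the main N-propeptidase of fibrillar procollagen, -0.82, and Pcolce2, -0.65) and 12 neither, with a median of -0.01. Cross-linking genes and fibril partners held 3 higher, 2 lower and 11 neither of 16 tested, with a median of -0.16. Lox, which starts the covalent cross-links between collagen molecules, was at 508, 386 and 617 CPM in normoxia and 1711, 1756 and 1711 CPM in hypoxia (log2 fold change 1.78, SE 0.14, adjusted p = 8.91e-06 by edgeR). Its relative Loxl2 rose by 1.25 (adjusted p = 1.06e-05 by edgeR), whereas Loxl1 was at 1100 ± 56.3 and 751 ± 45.6 CPM (SD, n = 3 each), which is a log2 fold change of -0.55 within the fold limit. Lum and Fmod, small proteoglycans that bind the surface of fibrils, fell by 2.17 and 0.71 (adjusted p = 1.18e-05 and 8.43e-05 by edgeR). Lum and Fn1 also stand in the fibroblast marker list.

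**Figure D5:**
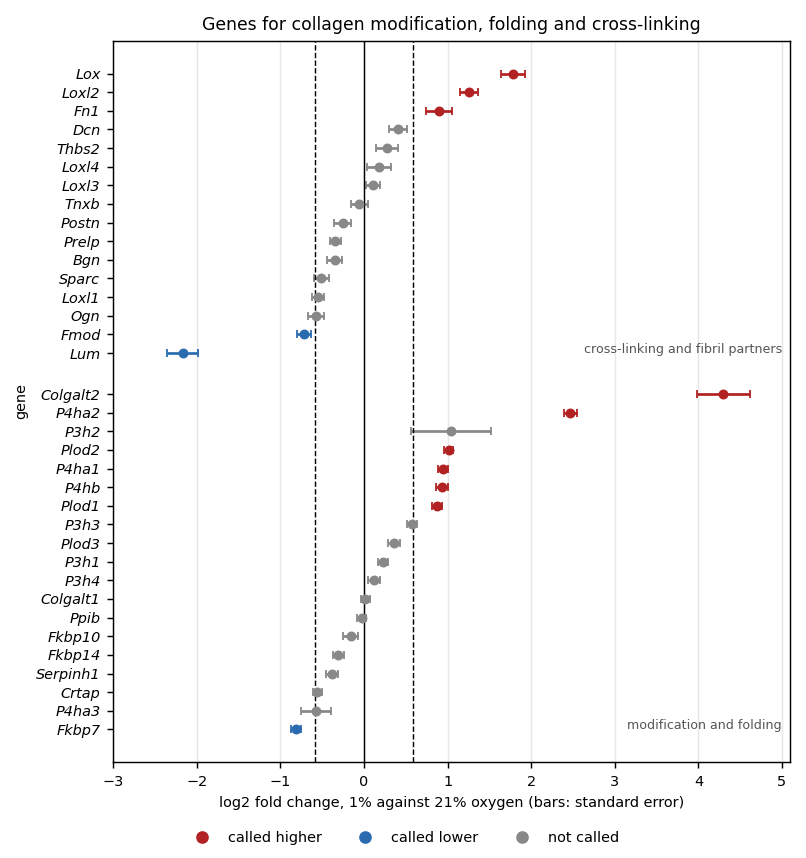
Log2 fold change with standard error at 1% against 21% oxygen for 19 genes of collagen modification and folding and 16 of cross-linking and fibril partners, with dashed lines at a fold change of 1.5. Red points were called higher, blue lower and grey neither, from Colgalt2 at 4.30 to Lum at -2.17.

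Degradation and uptake genes were called in both directions. Of 17 tested genes 6 were higher, 6 lower and 5 neither, with a median log2 fold change of -0.09. Mmp9, a gelatinase, rose by 3.39 (SE 0.44, adjusted p = 0.00015 by edgeR), from 0.672 ± 0.179 to 7.06 ± 4.04 CPM (SD, n = 3 each). Mmp1b, a collagenase-related gene, went from 1 count in every normoxic sample to 39, 40 and 77 counts (log2 fold change 5.33, SE 0.50, adjusted p = 2.03e-05 by edgeR). The ratio of the pooled counts was 45.1 with a 95% counting interval of 15.2 to 221, which leaves out the spread between samples. Mmp16, a membrane-type protease, fell by 1.32 and Timp4, an inhibitor of these enzymes, by 2.01 (adjusted p = 0.00138 and 1.05e-05 by edgeR). Mmp14, the membrane-bound collagenase of fibroblasts, was at 2761 ± 291 and 2378 ± 63.3 CPM (SD, n = 3 each) with a log2 fold change of -0.22 (adjusted p = 0.0505 by edgeR).

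The tested collagen genes were longer and richer in GC than the average tested gene, with a median exon length of 7542 against 3959 bases and a median transcript GC content of 55.4% against 49.8%. Members called higher had a median GC content of 54.2%, those called lower 51.0% and those not called 56.5%.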

How the data were processed

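RNA-seq of 6 PSC samples was analysed from the table the authors deposited. The authors trimmed poly(A) library reads with Cutadapt, mapped them to GRCm38 with STAR (2.6.1b) and estimated the expected count of each gene with RSEM (1.3.1), per the study's methods and the submitters' processing notes. The deposited expected counts were whole numbers and were not normalized. Reads shared by near-identical genes are split by an estimate in RSEM, which leaves such genes uncertain. Symbols, classes and exon lengths were joined through GENCODE M21, in which 55240 of 55426 identifiers were found. The annotation release and strand setting of the authors are not given in the sources used here. Of these features, 5 were transgene sequences with 0 counts.

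From these counts, edgeR 4.0.16 (R 4.3.3, limma 3.58.1) was run with filterByExpr, TMM scaling and its quasi-likelihood test on all 16207 genes that passed, with Benjamini-Hochberg adjustment over all of them. Calls needed a fold change beyond 1.5 and an adjusted p under 0.05. The SE was the log2 fold change over the square root of F, and 95% intervals of a log2 fold change used the t quantile at the 9.06 total degrees of freedom of the test. The fit was also run on counts simulated from these samples with 200 changed genes. That is far fewer than were called here, so the simulation does not test the scaling. DESeq2 (1.42.0), limma-voom, other scalings and filters, corrections for GC content and length, a replicate block and each sample left out were alternatives. Chain pairs were compared by exact permutation. Members, classes and gene lists were chosen with earlier results of these data known. Values per sample follow a rule: the 8 members highest per length in normoxia, the called members with the largest changes at a mean of at least 1 CPM without overlap, and the chains of the main types. Of other lists the 2 highest and 2 lowest called genes and 6 hub genes were named, except for a gene that is not reported here. Col4a3, Col4a4, Col2a1, P4hb, Plod1, Colgalt1, Loxl1, Fn1, Krt19 and the counts of rare members were chosen after their values were seen.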

Additional observations from a re-analysis of the deposited data

How the results depend on the processing

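The number of collagen genes called higher was between 10 and 12 under every alternative tried, and the number called lower was between 4 and 12. It was 10 with the GC correction, which added Col1a2, Col4a1, Col4a5 and Col8a2, and 12 without a fold limit, and 4 with a filter at 1 CPM, where only 30 members were tested. With each sample left out it ran from 6 to 9. With the replicate number as a block (replicate block), edgeR called the same 12 and 6 members. The adjusted p of Col3a1 was 0.0245 with the block in edgeR and 0.0197 with it in DESeq2. That of Col5a1 was 0.00742 and 0.00297, and both changes stayed inside the fold limit. In DESeq2 the replicate block gave 11 and 5, without Col22a1 (adjusted p = 0.059) and Col6a6 (adjusted p = 0.0611). The deviations from the group mean correlated at 0.142, 0.139 and 0.0378 between samples with a common number. Each sample correlated best with its own number, a hint from the data, but not every value was over 0.1 and no label gives a pairing, so the numbers were not taken to pair the samples. No call changed direction. Among members not called, the log2 fold change of Col1a1 was -0.18 with the GC and -0.084 with the length correction, and that of Col6a1 -0.119 and -0.091. With samples left out, values that changed sign ran from -0.10 to 0.14 for Col1a1, from -0.02 to 0.10 for Col6a1, from -0.56 to 0.042 for Col4a6, from -0.004 to 0.19 for Col5a2, from -0.26 to 0.082 for Col8a1 and from -0.33 to 0.19 for Col9a2. The cause was not tested. The GC and length corrections moved the median of all genes to -0.09, and the call counts over all genes to 2703 higher and 3013 lower, and 2680 and 2979, against 3068 and 2479. The collagen share difference ran from -0.403 to 0.0516 percentage points with samples left out. An order by principal transcript length was added after the data were seen. Members under about 1 CPM rest on few counts.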

Other observations

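Partners of collagen in the basement membrane were called in both directions. Of 15 tested genes 3 were higher, 5 lower and 7 neither, with a median log2 fold change of -0.04. The laminin chain Lamb2 rose by 0.83 on the log2 scale (adjusted p = 9.83e-06 by edgeR's quasi-likelihood test). Lama3 fell by 2.99 and Lama1 by 2.82 (adjusted p = 0.00044 and 2.39e-05 by edgeR). Lama3 rested on few counts, with 41, 58 and 22 in normoxia and 6, 8 and 3 in hypoxia. Lama1 went from 18.3 ± 7.16 to 2.59 ± 0.194 CPM (SD, n = 3 each).

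Of 8 tested collagen receptors, proteins by which cells bind collagen, 3 were called higher, 1 lower and 4 neither, with a median log2 fold change of 0.18. Itga11, the integrin chain by which fibroblasts bind fibrillar collagen, was at 75 ± 21.5 CPM in normoxia and 418 ± 17.1 CPM in hypoxia (SD, n = 3 each). It rose by 2.48 on the log2 scale (SE 0.18, adjusted p = 5.16e-06 by edgeR). Itga10 rose by 2.0 (adjusted p = 2.78e-05 by edgeR), and Lair1, an inhibitory receptor of immune cells, fell by 0.79 (adjusted p = 0.0323 by edgeR). Itgb1, the shared partner of these integrins, was at 805 ± 57.0 and 832 ± 15.1 CPM (SD, n = 3 each).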
